A study of Mus musculus with 4 samples.

Results

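Blnk, Btk, Syk, Plcg2, Lyn, Dapp1, Pik3ap1 and Cd79b are 8 genes that act together below immune receptors. These were followed in dendritic cells grown from mouse marrow, with Rbpj intact or targeted for deletion. They were taken as every probe for genes whose RefSeq accession carried one of these symbols, which gave 10 probes of 39429 on the array, with 2 each for Btk and Dapp1 and 1 for each other gene. All 8 genes were measured and stood among the 17974 genes compared between the genotypes. The set was selected on the Blnk difference between the genotypes in these same arrays, where Blnk was lower, so the differences of its members between genotypes are descriptions and carry no p-value here.

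Marrow of C57BL/6 mice, female and 8 weeks old, was cultured for 6 days with GM-CSF at 20 ng/mL, a cytokine that turns marrow precursors into dendritic cells, and the cells bearing CD11c were isolated. Control cells (RFF, 2 arrays) came from Rbpj fl/fl mice, in which both Rbpj alleles are flanked by loxP sites, and Rbpj-deficient cells (RFF11, 2 arrays) came from Rbpj fl/fl mice that also carried CD11c-cre, a recombinase driven by the promoter of the CD11c gene Itgax. Deletion therefore awaits CD11c expression, and no group carried the cre with an intact Rbpj, so that the cre and the loss of Rbpj cannot be told apart. RNA was pooled from 4 mice per condition, whether the 2 arrays within a genotype hold separate pools is not stated, and all 4 arrays shared 1 slide, so any spread given below may be technical and place on the slide cannot be told apart from genotype.

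In B cells these proteins form one relay. Cd79b and its partner Cd79a carry the ITAM, a paired tyrosine motif in the tail of the antigen receptor; the Src-family kinase Lyn phosphorylates it, the kinase Syk docks on it, and Syk phosphorylates the adaptor Blnk, on which the Tec-family kinase Btk and the phospholipase Plcg2 meet. Plcg2 then releases calcium and activates protein kinase C, while Pik3ap1 (BCAP) recruits phosphoinositide 3-kinase and Dapp1 (Bam32) binds the lipids that this kinase makes. Myeloid and dendritic cells use much of the same relay below Fc receptors, C-type lectins and the adaptors Tyrobp and Fcer1g.

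Rbpj, a DNA-binding protein that mediates transcription downstream of Notch, was lower on both Rbpj-deficient arrays, at 42.1% of the control signal. Between 55.2% and 58.4% of the spots on an array were well above background. Of the dendritic cell markers with a matched probe, 15 of 15 were well above background on all 4 arrays, among them H2-Ab1, Cd74 and Itgax. Itgax itself overlapped between control (6.69 and 6.63) and Rbpj-deficient cells (6.65 and 6.45). In such bulk RNA, fewer cells that express a gene and less of its RNA per cell cannot be told apart. Levels below are log2 signals less the array's 75th percentile, and levels of different probes are not compared, because probes differ in how well they hybridise.

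Blnk was the member that differed most between the genotypes. It read 3.24 and 3.36 in control cells and 2.05 and 2.17 in Rbpj-deficient cells. Both Rbpj-deficient arrays lay well below both control arrays, with a gap of 1.07 between the nearest of them. The means were 3.30 ± 0.08 and 2.11 ± 0.09 (SD, n = 2), a log2 difference of -1.19 (SE 0.08), so that 43.8% of the control signal was left, or 2.28-fold less. Of the 17974 genes compared, 74 had a lower difference. This is the value for which the set was chosen.

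The stretch of DNA just before the start of Blnk is shown because Rbpj is a DNA-binding protein and Blnk is the member that differed. The windows are the 250 bases before the RefSeq start in GRCm38.p6, read in the direction of the gene. Btk and Plcg2, whose values are given further on, are shown beside it because their windows were the ones that held TGGGAA, the core of the motif known for RBPJ. Capitals mark TGGGAA in Btk and Plcg2, and AGGAAGT (an ETS-family core) followed by ATTTGCAT (the octamer known from B cell promoters) in Blnk. The windows are chr19:40994222-40994471 on the minus strand for Blnk, chrX:134583141-134583390 on the minus strand for Btk and chr8:117498025-117498274 on the plus strand for Plcg2.
Blnk: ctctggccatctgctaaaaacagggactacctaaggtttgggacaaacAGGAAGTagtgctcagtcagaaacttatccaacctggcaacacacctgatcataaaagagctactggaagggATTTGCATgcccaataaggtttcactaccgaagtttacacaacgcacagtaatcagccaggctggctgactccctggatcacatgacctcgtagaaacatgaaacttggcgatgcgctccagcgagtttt
Btk: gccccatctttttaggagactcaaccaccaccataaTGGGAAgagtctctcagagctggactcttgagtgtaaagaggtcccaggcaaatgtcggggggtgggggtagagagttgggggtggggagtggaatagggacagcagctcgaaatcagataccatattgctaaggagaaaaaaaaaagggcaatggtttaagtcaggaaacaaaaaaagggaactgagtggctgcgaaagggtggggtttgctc
Plcg2: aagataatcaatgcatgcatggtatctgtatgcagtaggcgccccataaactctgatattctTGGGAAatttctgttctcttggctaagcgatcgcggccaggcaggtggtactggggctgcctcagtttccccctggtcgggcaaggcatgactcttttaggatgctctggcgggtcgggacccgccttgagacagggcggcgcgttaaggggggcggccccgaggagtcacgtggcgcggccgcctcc

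RefSeq windows were matched for 6 of the 8 members, 7 windows in all with 2 for Syk, and none was at hand for Lyn and Cd79b. On either strand, TGGGAA stood in 2 of these 7 windows, against 21.6% of all 32851 promoter windows, and the longer GTGGGAA, which contains it, in 0, against 5.42%. The octamer ATTTGCAT stood in the Blnk window alone, 130 to 123 bases before the start, and in 1.60% of all windows. AGGAAGT stood in the windows of Blnk and Dapp1 and in 7.69% of all windows. GAGGAA, a core known for the myeloid factor PU.1, which can overlap AGGAAGT, stood in those of Pik3ap1 and of 1 of the 2 Syk starts and in 23.3% of all. The octamer and AGGAAGT were searched after the Blnk window had been read. A match only says that the letters are there, and no match only that they are not in this window.

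The other adaptors, Dapp1 and Pik3ap1, lay slightly higher in Rbpj-deficient cells. The brighter Dapp1 probe read 1.75 on each control array and 1.91 and 1.97 in Rbpj-deficient cells, a difference of 0.19 (SE 0.06). Its dimmer probe read -1.57 and -1.49 against -1.27 and -1.19, a difference of 0.30. Both probes thus ran in the same direction, by 1.14-fold and 1.23-fold. Pik3ap1 read -3.0 and -3.08 in control and -2.86 and -2.95 in Rbpj-deficient cells, a difference of 0.14 (SE 0.07). Its groups were separated by 0.06, about as much as the SD within each group.

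Among the kinases, Btk stood slightly lower and Syk and Lyn slightly higher. Btk, the Tec-family kinase that binds Blnk, read 2.55 on each control array and 2.49 and 2.48 in Rbpj-deficient cells on its brighter probe, a difference of -0.07 (SE 0.05). Its dimmer probe read -0.48 and -0.63 against -0.69 and -0.76, a difference of -0.17. On both probes the groups were 0.06 apart, and Rbpj-deficient cells held 95.5% and 88.9% of the control signal. Syk read 3.74 and 3.81 in control and 3.99 and 3.91 in Rbpj-deficient cells, a difference of 0.18 (SE 0.06). Lyn read -1.07 and -1.05 in control and -0.85 and -1.01 in Rbpj-deficient cells, a difference of 0.13 (SE 0.08). The second Rbpj-deficient array of Lyn came within 0.03 of the control arrays, and without the first the difference was 0.04.

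Plcg2, the enzyme that splits a membrane phosphoinositide, read 4.78 and 4.77 in control and 4.90 and 4.83 in Rbpj-deficient cells, a difference of 0.09 (SE 0.06), or 1.06-fold. No spot of any member was saturated.

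Cd79b, the receptor chain, was the member with the next larger difference after Blnk. It read -4.19 and -4.22 in control and -3.78 and -3.49 in Rbpj-deficient cells. Both Rbpj-deficient arrays were higher, but they lay 0.29 apart from each other. The log2 difference was 0.57 (SE 0.12), or 1.48-fold, and it was 0.27 with the normexp background correction, a model-based alternative with a fixed offset.

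**Figure D1:**
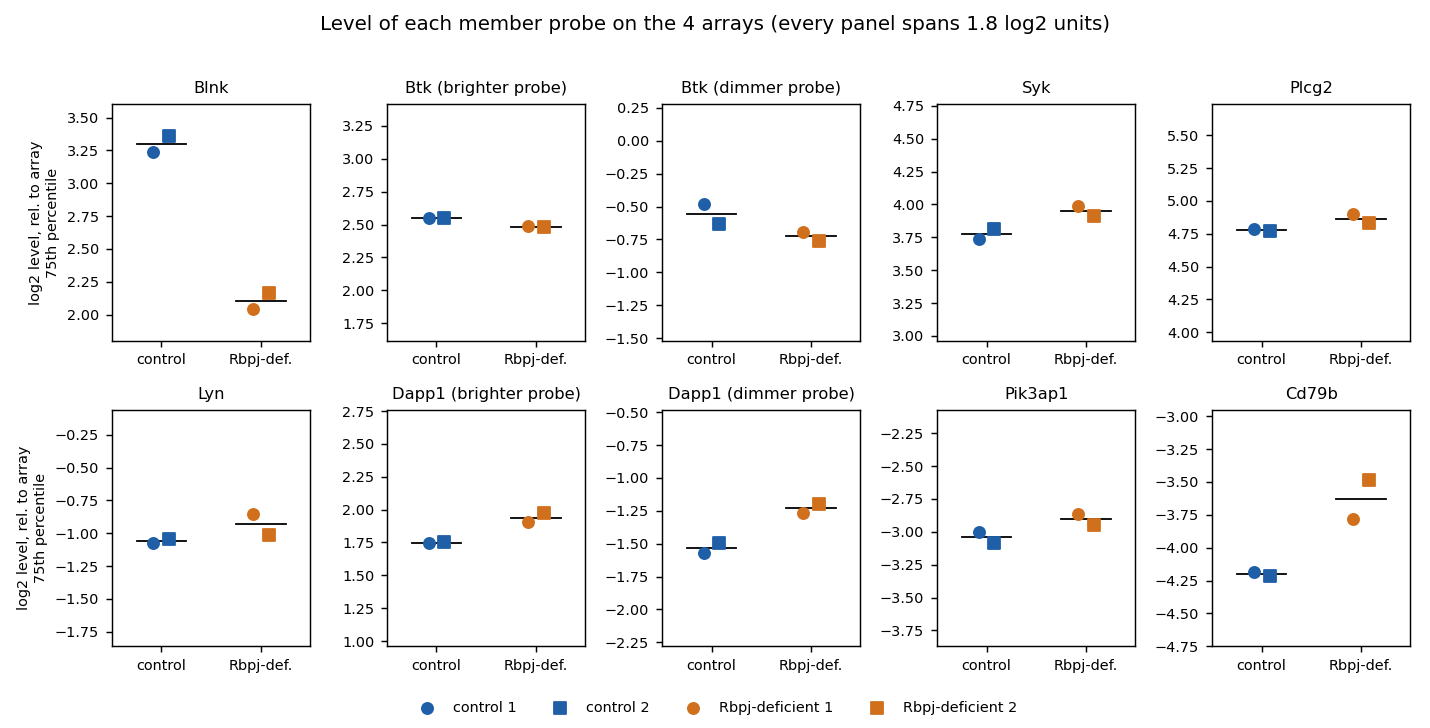
Level of each of the 10 member probes on the 4 arrays, as log2 signal less the array's 75th percentile (vertical axis, 1.8 log2 units in every panel) in control (blue) and Rbpj-deficient (orange) cells, with circles for replicate 1, squares for replicate 2 and a bar at each mean. Blnk has means of 3.30 and 2.11, Cd79b lies higher by 0.57, and the other probes differ by 0.30 or less.

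Read together, the genotypes did not overlap at any of the 8 genes: 6 were higher and 2, Blnk and Btk, were lower in Rbpj-deficient cells. Such separation was common, since 59.1% of all genes compared did not overlap, 26.8% higher and 32.3% lower. Apart from Blnk and Cd79b, the differences on the brighter probes ran from 0.07 to 0.19 in size, that is from 0.955-fold to 1.14-fold. For the spots of these genes the scanner software gave an error of up to 10.9% of the signal, for Pik3ap1 on control replicate 1. The highest error of any member spot, 14.7%, was that of Cd79b on control replicate 1. The median difference of the 8 was 0.13, against -0.01 over all genes. In the limma fit over all genes with Benjamini-Hochberg adjustment, 1 of the 8, Blnk, was called at 0.05, beside 1.88% of all genes, and nothing is read from that share because the set was built on this contrast. None of the other 7 was called and 2 of them had an unadjusted p under 0.05, beside 24.1% of all genes, which does not show that their levels were equal. The Blnk call ended when any 1 of the 4 arrays was left out, with log2 differences from -1.25 to -1.13.

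**Figure D2:**
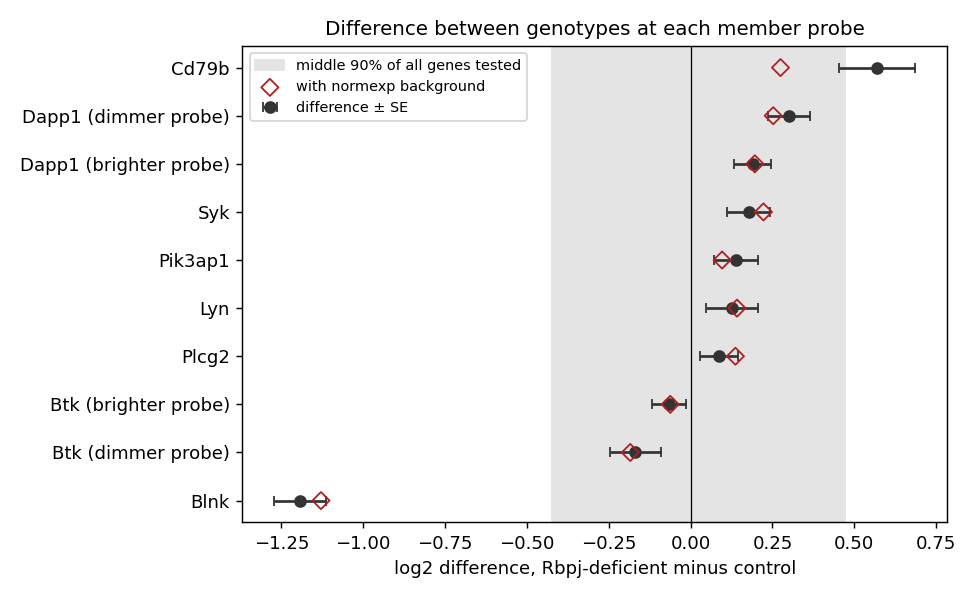
Log2 difference between Rbpj-deficient and control cells (horizontal axis) for each member probe, with the SE of the limma fit as bars and the value after normexp background correction as open diamonds; grey spans the middle 90% of all genes compared. Blnk at -1.19 and Cd79b at 0.57 lie outside the grey band. Cd79b lies at 0.27 with normexp, for which no band was drawn.

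The relay holds many other genes, and 125 of them were listed by role. Of these, 116 were compared and 7 (6.03%) were called at 0.05 by limma over all genes, beside 1.88% of all genes. Of the 7, 5 were higher (1.04% of all genes were called higher) and 2 lower (0.840% were called lower). The 5 include Txk, whose control signals lay at background, and 109 genes were not called. The median difference of the 116 was 0.00, with 58 above 0 and 58 below, against -0.01 over all genes. None of the 7 calls was left when any 1 of the 4 arrays was taken out, where 24 to 35 of these genes (20.7% to 30.2%) had an unadjusted p under 0.05, beside 16.6% to 19.5% of all genes. With every array in the fit, 48 of the 116 (41.4%) had an unadjusted p under 0.05 in limma. Over all genes it was 24.1%, the share beside which such counts below stand. Nothing more is read from these shares, because the lists were chosen with earlier results of these data known.

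Txk and Ptk2b were called among 11 kinases, listed as Src, Tec and Csk family members together with Zap70, the Syk relative of T cells, and Ptk2b. Txk, a Tec-family kinase known from T and natural killer cells, read -7.56 and -7.42 in control, where it was not well above background, and -4.62 and -4.71 in Rbpj-deficient cells, where it was. Taking as control level the lowest signal well above background on each control array, or the probe's own if higher, it was 1.99-fold brighter there. Its fitted difference of 2.83 (adjusted p = 0.0165, limma) became 0.60 with normexp. Txk entered the comparison through its Rbpj-deficient arrays alone, so its call rests on control signals at background, and it was not compared when all 4 arrays had to be well above background. Ptk2b (Pyk2), a kinase of the focal adhesion family, rose by 0.64 (SE 0.06, adjusted p = 0.0379), from 1.54 and 1.48 to 2.13 and 2.15, and by 0.42 on its other probe. The remaining 9 of the 11 compared did not pass, 6 of the 11 had an unadjusted p under 0.05 in limma, and the median of the 11 was 0.30. Tec, which like Btk lay below 0, stood at -0.18 (adjusted p = 0.205).

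Bank1 and Fyb rose among the adaptors that work beside Blnk. Bank1, a scaffold of B cells that binds Lyn, read -4.13 and -4.15 in control and -2.54 and -2.61 in Rbpj-deficient cells, a rise of 1.56 (SE 0.06, adjusted p = 0.0165), or 2.95-fold, and 1.07 with normexp. Its dimmer probe gave 1.30. Fyb (ADAP) rose by 0.63 (SE 0.06, adjusted p = 0.0379) and gave 0.62 on its second probe. The other 24 of 26 did not pass, 12 of the 26 had an unadjusted p under 0.05 in limma, and the median was -0.01. Lcp2 (SLP-76), the Blnk relative of T cells and myeloid cells, read -1.22 on each control array and -0.81 and -0.75 in Rbpj-deficient cells. The difference of 0.44 missed the threshold (adjusted p = 0.0572) and passed when all 4 arrays had to be well above background. Clnk, a further relative, was well above background on neither control array and was compared through its Rbpj-deficient arrays alone. With the control level taken as for Txk, it was 1.54-fold brighter there. Its fitted difference of 1.57 (adjusted p = 0.0576, limma) became 0.35 with normexp, where it passed the threshold (adjusted p = 0.0417). Grap, a Grb2-like adaptor, lay at -0.96 (adjusted p = 0.0679) and Vav1, an exchange factor that Syk phosphorylates, at 0.19 (adjusted p = 0.176).

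Fcgr1 and Trem2 were called lower among 14 receptors and ITAM adaptors that feed Syk in myeloid cells, and none was called higher. Fcgr1, the high-affinity IgG receptor, fell by 0.61 (SE 0.06, adjusted p = 0.0424), from 3.03 and 3.12 to 2.47 and 2.46. Trem2, which signals through Tyrobp, fell by 0.53 (SE 0.06, adjusted p = 0.0445), a call that ended with quantile normalization. The median was -0.15, with 10 of the 14 below 0 and 4 above, Siglech the highest at 0.66 (adjusted p = 0.154). Of the 14, 8 had an unadjusted p under 0.05 in limma. The ITAM adaptors themselves differed little, with Tyrobp at -0.10 (adjusted p = 0.452) and Fcer1g at -0.13 (adjusted p = 0.293).

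Downstream of Plcg2, Card9, the scaffold that links C-type lectin signals to NF-kappaB, rose by 0.63 (SE 0.06, adjusted p = 0.0379), from -1.21 and -1.14 to -0.54 and -0.55. The other 24 of 25 calcium, protein kinase C and CARD genes did not pass (median 0.13), and 9 of the 25 had an unadjusted p under 0.05 in limma. Among 19 phosphoinositide enzymes and readers none was called in limma and 4 had an unadjusted p under 0.05. Their median was -0.05. The phosphatase Inpp4b was well above background on neither control array and was likewise compared through its Rbpj-deficient arrays alone. With the control level taken as for Txk, it was 1.93-fold brighter there. Its fitted difference of 1.23 (adjusted p = 0.193, limma) became 0.35 with normexp, and its other probe gave -0.16. Among 21 inhibitory receptors, phosphatases and adaptors none was called either and 9 had an unadjusted p under 0.05. Their median was 0.00, and Cd5, a brake on antigen receptor signals, was the farthest from 0 at 0.86 (SE 0.14, adjusted p = 0.0705).

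**Figure D3:**
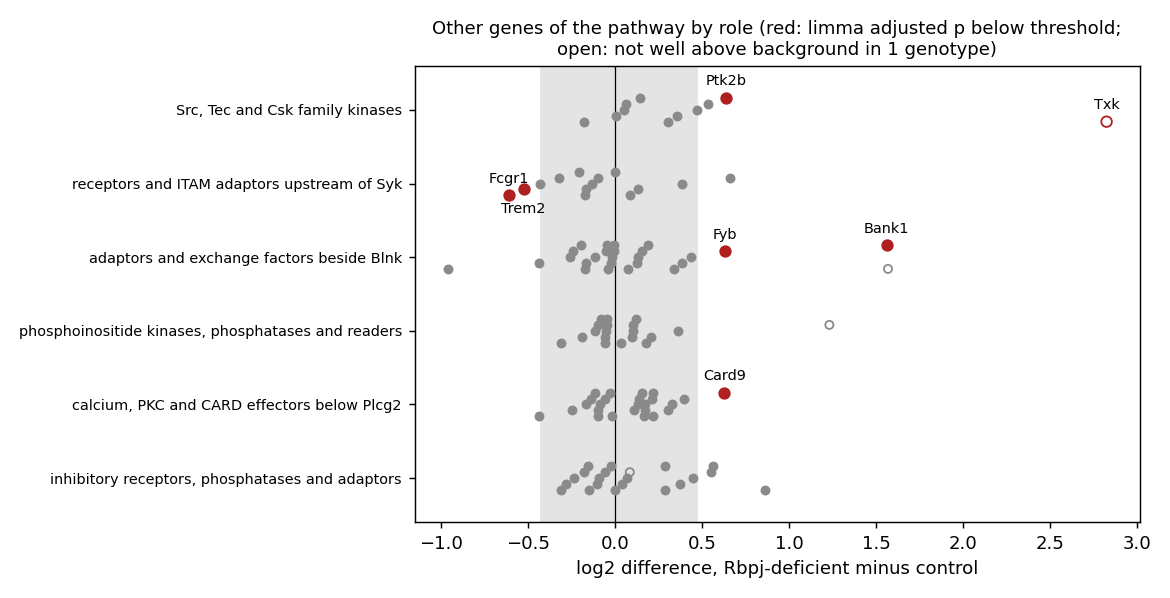
Log2 difference between Rbpj-deficient and control cells (horizontal axis) for 116 other genes of the relay, 1 row per role; red points passed limma's adjusted p of 0.05, open points were not well above background in 1 genotype and grey spans the middle 90% of all genes. The 5 red points to the right are Txk, Bank1, Ptk2b, Fyb and Card9, and the 2 to the left are Fcgr1 and Trem2.

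Several members are best known from B cells, so B cell markers were read beside them. Of 20 listed markers with a matched probe, 11 were not well above background on any array, including the defining genes Ms4a1 (CD20), Pax5 and Ebf1, and 5 were on all 4. Cd79a, the obligate partner of Cd79b, was well above background on 1 of 4 arrays, Rbpj-deficient replicate 2, whereas Cd79b was so on all 4. The summed level of the list was 3.36 and 3.32 in control and 3.20 and 3.0 in Rbpj-deficient cells, but 1 gene, Cd37, gave 89.5% to 92.5% of that signal. Without Cd37 the sum was -0.39 and -0.33 in control and -0.29 and -0.25 in Rbpj-deficient cells, so that the lower sum was that of Cd37. Of the 7 markers compared none was called in limma, and 3 had an unadjusted p under 0.05 (median -0.27). Blk, a Src-family kinase of B cells, was the farthest from 0, with -6.63 and -5.57 in control, where 1 of 2 arrays was well above background, and -3.53 and -3.69 in Rbpj-deficient cells (adjusted p = 0.0657). Blk, 1 of the 3, and Cr2, another of the 7, entered the comparison through their Rbpj-deficient arrays alone. The fitted Blk difference of 2.49 became 0.94 with normexp, where it passed the threshold (adjusted p = 0.0057, limma).

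Blnk is also known from plasmacytoid dendritic cells, and markers of those cells went both ways. Of 14 compared, Cd7 rose by 2.88 (SE 0.11, adjusted p = 0.0165), Klra17, a lectin-like receptor, fell by 1.24 (SE 0.08, adjusted p = 0.0322) and 12 did not pass (median 0.00). Over all genes 1.88% were called. The Klra17 difference was -0.74 with normexp. The summed level of the list was 6.16 and 6.24 in control and 6.28 on each Rbpj-deficient array. Bst2 gave 35.6% to 38.8% of that sum, and without Bst2 the sums of the genotypes overlapped. Spib, a transcription factor of B cells and plasmacytoid dendritic cells, read -0.54 and -0.41 in control and -2.36 and -1.70 in Rbpj-deficient cells, a difference of -1.55 that missed the threshold (adjusted p = 0.0664). Cox6a2 and Atp1b1 of the same list went the other way, by 1.49 (adjusted p = 0.116) and 1.21 (adjusted p = 0.0652), and missed the threshold too. With normexp, Spib (-1.31, adjusted p = 0.0245, limma) and Atp1b1 (0.69, adjusted p = 0.0275) passed and Cox6a2 did not. Siglech, listed among the Syk receptors above and not here, read 4.71 and 5.23 in control and 5.62 and 5.64 in Rbpj-deficient cells, a difference of 0.66 (adjusted p = 0.154). Tcf4 stood at -0.12, with -1.04 on another probe that the filter left out, and Irf8 at -0.01. The part of these markers in the Blnk difference was not tested.

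Lists for other cells of such cultures were read in the same way. Over all genes 1.04% were called higher and 0.840% lower, and 8509 of 17974 stood above 0. Of 12 neutrophil genes 3 were called higher and none lower, led by Stfa2l1 (0.90, adjusted p = 0.0445), and the summed level went from 5.84 and 5.78 to 6.39 and 6.25. Of 11 monocyte and macrophage genes Marco rose (1.29, adjusted p = 0.0322), Fcgr1 fell and 9 did not pass, with summed levels of 8.27 and 8.34 against 8.18 and 8.20. Of 8 mast cell and basophil genes Hdc rose (0.48, adjusted p = 0.0477), Il1rl1 fell (-1.43, adjusted p = 0.0434) and 6 did not pass. The median of the 8 was 0.46 with 7 of 8 above 0, while the summed level was 2.05 and 2.09 against 1.78 and 1.77. Il1rl1 gave 57.9% and 56.1% of the control sum, and without it the sums were 0.80 and 0.91 against 1.42 and 1.26, higher in Rbpj-deficient cells. Fcer1a and Ms4a2 of this list were not well above background on any array. Of 8 T and natural killer cell genes Klrb1c rose (1.14, adjusted p = 0.0379, and 0.59 with normexp) and 7 did not pass. The median of the 8 was 0.26 with 5 of 8 above 0, while the summed level was 2.21 and 2.21 against 1.98 and 2.15. Cd4 gave 61.5% to 68.8% of it, and without Cd4 the sums overlapped, at 0.69 and 0.54 against 0.61 and 0.70. Cd8a, Cd247, Ncr1 and Gzma of this list were not well above background on any array. None of the 15 dendritic cell markers was called in limma, 4 had an unadjusted p under 0.05, and Ccr7 was the farthest from 0 at -0.48 (adjusted p = 0.0931). The summed neutrophil level was higher on both Rbpj-deficient arrays, with 10 of the 12 genes above 0 and 2 below, and the part of these cells in the members' differences was not tested.

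The genes beside Blnk on its chromosome were read next. In the order of the GRCm38.p6 annotation, the nearest genes compared on either side were Zfp518a, at 0.09 (adjusted p = 0.628) and 0.25 on its other probe, and Dntt, at 0.01 (adjusted p = 0.984). Pik3ap1 starts on the same chromosome with 6 annotated genes between, of which Dntt and Tm9sf3 were compared, and Tm9sf3 stood at -0.05 (adjusted p = 0.714). None of these neighbours passed the threshold in limma.

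The 4-array profile of Blnk was set against those of 12292 other named genes well above background on all 4 arrays, by the Euclidean distance between their values, each centred on its own mean. The 5 nearest were Klra17 (distance 0.05), the TNF-family cytokine Tnfsf15 (0.08), the actin-binding protein Palld (0.08), the sulphotransferase Chst7 (0.11) and Rbpj itself (0.16). Their log2 differences lay between -1.26 and -1.19, beside -1.19 for Blnk. Rbpj read 2.69 and 2.61 in control and 1.37 and 1.44 in Rbpj-deficient cells, and Klra17 read -3.10 and -2.99 against -4.36 and -4.22. With normexp the difference of Klra17 became -0.74 and that of Blnk -1.13, so the nearness of Klra17 depends on the background correction. With 4 arrays in 2 genotypes, such likeness is a matter of equal size and small spread.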

How the data were processed

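RNA of 4 samples was measured on one-colour Agilent mouse arrays, 2 per genotype, from 150 ng of Cy3-labelled RNA per the labels. Per the file headers, the authors' deposited spot intensity came from Agilent Feature Extraction 10.7.1.1 and was background-subtracted and detrended but not scaled between arrays. The deposited value table holds log2 values whose scaling is not given in the sources used here; against the scanner signal they were scaled per array and centred per probe (Pearson r of 1.00 on each array over at least 39426 probes), with column medians of 0.0531, -0.0305, -0.0340 and 0.0201, in the same direction, and served as an alternative.

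Signals were taken to log2 less the 75th percentile of spots for genes. Outlier spots, 127 to 176 per array, were left out, none of them on a member probe, and 0 were saturated. Kept were probes that rose well above background on every array of 1 genotype or of both, each gene by its probe with the highest mean, and genotypes were compared with limma 3.58.1 (R 4.3.3), p-values being adjusted by Benjamini-Hochberg over 17974 genes and called at 0.05. This procedure was run on simulated data drawn from limma's own variance model with independent arrays. That run cannot address a shared RNA pool or the shared slide. Normexp used the median spot and background signals with an offset of 50. Symbols came from RefSeq annotation of GRCm38.p6 by accession, for 26055 of 39429 probes, and 13374 received none; the array annotation names mm9, so the promoter windows of GRCm38.p6 are the only coordinates given. The number of arrays limits the precision.

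Members, lists and alternatives were chosen with earlier results of these data known. Named by rule were all members, Rbpj and Itgax, Cd79a, in each pathway list up to 3 highest and 3 lowest calls or else the member farthest from 0, in each marker list 1 in each direction and its undetected defining genes, the neighbours of Blnk and the 5 nearest profiles. Tec, Lcp2, Clnk, Grap, Vav1, Tyrobp, Fcer1g, Spib, Cox6a2, Atp1b1, Siglech, Tcf4, Irf8, Tm9sf3, Zap70, Cd37, Cd4, Cr2 and Bst2 were named after their values were seen. Alternatives covered background, scaling, filter, probe choice, variance prior, the deposited table, a replicate block and leaving out each array. Summed levels add the linear signals of a list's brightest probe per gene and so follow its brightest genes. Columns of other samples left out numbered 0. Some listed genes are counted but not reported by name here.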

Additional observations from a re-analysis of the deposited data

How the results depend on the processing

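The log2 difference of Blnk stayed below 0 under all 13 alternatives, at -1.22 to -1.13 over the 9 that kept every array and -1.25 to -1.13 without 1 array, and Btk stayed below 0 and the other 6 members above 0 in each of them. Cd79b ranged from 0.27 to 0.57 and from 0.42 to 0.72 without 1 array, and Lyn from 0.04 to 0.21 without 1 array. Calls were less steady. Over all genes limma called 338, against 886 with normexp, 1547 with a variance prior that followed signal and was made robust, and 0 with no filter on dim probes (3655 at an unadjusted p under 0.05) or with the replicate block (3677). Of the 116 other genes of the relay 7 were called, against 18 with normexp, 21 with that variance prior, and 0 with no filter (25 at an unadjusted p under 0.05) or the block (36). Lcp2, Clnk, Grap, Cd5, Blk, Spib and Atp1b1, named above as not called, passed the threshold with normexp. Of the members 1 was called, against 0 with no filter and 0 with the block. Without 1 array 0 to 1 genes were called over all genes, 0 members and 0 pathway genes, with fewer arrays left to estimate the spread and a lone array taken to vary like the other genotype. Same-numbered arrays shared only a number (correlation of their deviations -0.05), so the block pairs nothing that the labels state. Signal over background limits Cd79b, Txk, Clnk, Inpp4b, Blk, Cr2, Bank1, Klra17 and Klrb1c.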
